A study of Mus musculus with 12 samples.

Results

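The 39 genes described here encode nucleolar proteins that make ribosomes, and they were followed one by one and as a sum in single cells of the mouse superior mesenteric ganglion (SMG). They were taken by gene symbol from the 32286 features of the count matrices, and all 39 had a feature. The study compared SMG of the 129+Ter/SvJcl strain between a wild-type (WT) mouse at 3 weeks of age (n = 1), Th-MYCN hemizygote (Th-MYCN+/-) mice at 3 weeks (n = 10) and a Th-MYCN+/- mouse at 6 weeks (n = 1). The Th-MYCN transgene places human MYCN under the tyrosine hydroxylase promoter, so it is driven in catecholaminergic cells and their precursors, and its transcript has a feature of its own, H_MYCN. The 6-week-old ganglion was picked because a macroscopic tumor was seen on dissection, so that library differs from the others in age and in the way it was selected. With 1 mouse each, the WT and the 6-week-old groups allow no test, and their values stand with intervals that cover counting error only.

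Ribosomes are assembled in the nucleolus, where RNA polymerase I transcribes ribosomal RNA (rRNA), small nucleolar ribonucleoproteins (snoRNPs) modify it, and assembly factors fold and cut it into the 40S and 60S subunits. MYC family transcription factors are known activators of this pathway and bind the E-box CACGTG. Sympathetic neuroblasts, the dividing precursors of ganglion neurons, are the cells from which neuroblastoma arises.

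Because MYC family proteins bind this E-box, the 300-base promoter windows of RefSeq (build GRCm38.p6, 250 bases before to 50 after a start) were searched for CACGTG, which reads the same on both strands. An entry was found for 33 of the 39 genes (Npm1, Fbl, Bop1, Rrp12, Rrs1 and Gnl2 are not among them). The letters were present in 5 of the 33 (15.2%), in 19 of 103 other genes of the pathway (18.4%) and in 2187 of 27025 genes with an entry (8.09%). The 5 stretches are given because they are the members whose window holds the searched letters, with the hexamer in capitals and each sequence on the strand of its gene, the plus strand in all 5. A match describes the letters in this window and is not evidence of binding.
Nop2, chr6:125131811-125131840: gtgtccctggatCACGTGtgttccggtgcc
Pes1, chr11:3963965-3963994: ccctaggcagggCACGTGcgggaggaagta
Tsr1, chr11:74898092-74898121: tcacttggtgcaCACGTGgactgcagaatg
Wdr43, chr17:71616220-71616249: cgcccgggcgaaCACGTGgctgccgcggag
Mybbp1a, chr11:72441355-72441376: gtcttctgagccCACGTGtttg
The hexamer began 60 bases before the annotated start in Nop2, and 2, 17, 24 and 40 bases after it in Pes1, Wdr43, Tsr1 and Mybbp1a. These 5 genes differed in their measured change between cell types, as given below: Mybbp1a was among the larger increases against ganglion cells, Tsr1 among the smaller, and Nop2 had too few counts to be tested.

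After cell calling and quality control, 11872 cells remained, 522 to 1748 per 3-week-old Th-MYCN+/- mouse, 618 in WT and 945 at 6 weeks. The libraries held 1444554 to 6388766 unique molecular identifiers (UMIs, each standing for 1 captured transcript) in the 3-week-old Th-MYCN+/- mice, 1147772 in WT and 4824039 at 6 weeks. Of the 11780 distinct cell barcodes, 91 occurred in more than 1 library, against 86.7 expected by chance. Cells were clustered without the 39 genes, without 121 other genes of the pathway and without H_MYCN, and clusters were named from marker genes as neuroblast-like (2998 cells), ganglion-like (2663), Schwann-like (2883) and 5 smaller classes, while 2208 cells stayed unnamed. Mouse 2 stood apart, with 1443 ganglion-like, 30 neuroblast-like and 7 Schwann-like cells among its 1748, and 37.8% of its UMIs in cells. Neuroblast markers summed to 19668 CPM (counts per 1000000 UMIs of the class) in neuroblast-like, 3369 in ganglion-like and 1996 in Schwann-like cells, and ganglion markers to 43440 CPM in ganglion-like and 4001 in neuroblast-like cells. H_MYCN averaged 321 ± 162 CPM (SD, n = 10) in neuroblast-like, 2.26 ± 2.91 in ganglion-like and 19.7 ± 44.4 in Schwann-like cells, and had 0 UMIs in the WT library.

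On average over mice, the sum of the 39 genes was highest in neuroblast-like cells. There, their summed level in the 10 Th-MYCN+/- mice at 3 weeks ranged from 4492 to 6277 CPM with a median of 5560 (5450 ± 538, mean ± SD). In ganglion-like cells of the same mice it ranged from 1512 to 2200 CPM with a median of 1775 (1798 ± 216), and in Schwann-like cells from 493 to 3014 CPM with a median of 1692 (1738 ± 617). Neither range reached the lowest neuroblast-like value. The level in neuroblast-like cells was 3.08 ± 0.503 times that in ganglion-like cells of the same mouse (2.04 to 3.79, n = 10). Against Schwann-like cells the ratio was 3.08 ± 0.610 over 9 mice (1.77 to 3.81), and 9.11 in mouse 2, whose 7 Schwann-like cells held 2 UMIs of these genes.

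Among the smaller classes of the 3-week-old Th-MYCN+/- mice, endothelial-like cells held 2234 ± 659 CPM (n = 10), myofibroblast-like cells 2158 ± 760 CPM (n = 9), macrophage-like cells 2049 ± 501 CPM (n = 10) and fibroblast-like cells 1891 ± 531 CPM (n = 9). The ranges of these 4 classes overlapped each other and those of ganglion-like and Schwann-like cells. NKT-like cells, the T and natural killer lymphocytes, held 4713 ± 1016 CPM, from 2 mice with at least 5 such cells. The unnamed cells, most of them in 1 shallow cluster of 2181 cells with a median of 508 UMIs, held 4974 ± 848 CPM (n = 10). Their range of 3304 to 6210 CPM overlapped that of neuroblast-like cells and lay above the whole ganglion-like range. They held 208 ± 85.8 CPM of H_MYCN and, over all mice, 13487 CPM of neuroblast and 10431 CPM of ganglion markers. Counting the shallow cluster as neuroblast-like was an alternative added after seeing the data. In the tests below it left 31 of 34 genes higher than in ganglion-like and 26 of 29 than in Schwann-like cells. Unnamed cells exceeded neuroblast-like cells in mouse 2 (4908 against 4492 CPM) and mouse 3 (6210.5 against 5634 CPM), and NKT-like cells did in mouse 4 (5431 against 5038 CPM).

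**Figure D1:**
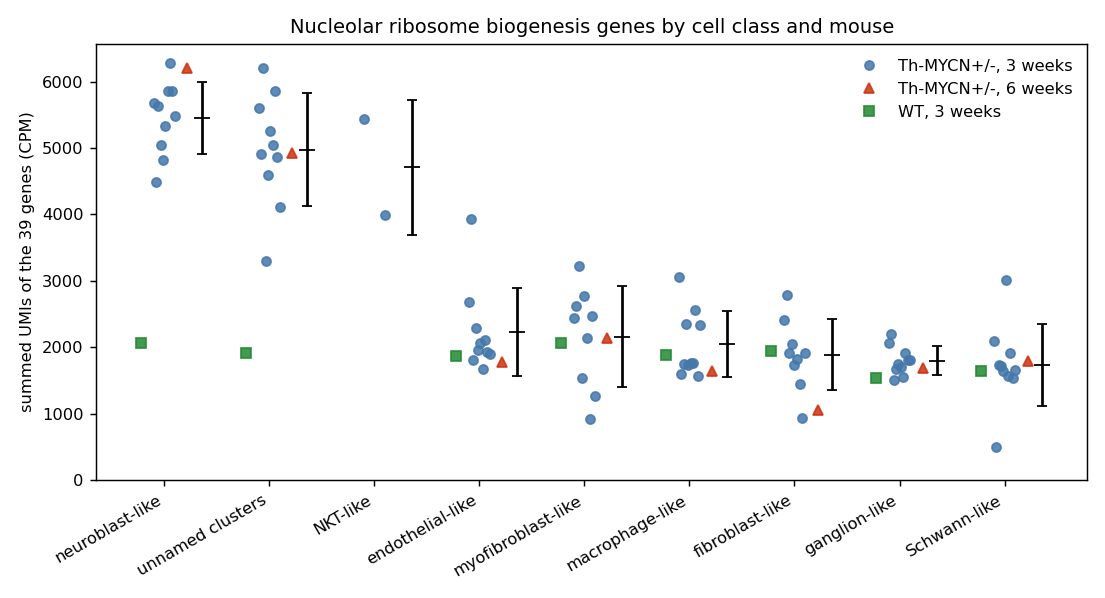
Summed UMIs of the 39 genes in CPM (vertical axis) by cell class (horizontal axis), 1 point per mouse with at least 5 cells of the class. Black bars give the mean ± SD of the 3-week-old Th-MYCN+/- mice. The neuroblast-like points of these mice (4492 to 6277 CPM) lie above all their ganglion-like (1512 to 2200) and Schwann-like points (493 to 3014), and the WT neuroblast-like point (2065) lies below them.

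Depth per cell differed between classes, so every cell with at least 500 UMIs was also thinned to 500. A neuroblast-like cell then held 2.79 ± 0.397 UMIs of the 39 genes on average (mean ± SD over 10 mice, 2646 cells), a ganglion-like cell 0.945 ± 0.244 (2010 cells) and a Schwann-like cell 0.771 ± 0.250 (1821 cells). Unnamed cells, at 2.75 ± 0.333 (10 mice), and NKT-like cells, at 2.68 ± 0.458 (2 mice), were close to neuroblast-like cells. The lowest neuroblast-like mouse average (1.78) was above the highest ganglion-like (1.52) and Schwann-like averages (1.02). The share of thinned cells with a UMI of any of the 39 genes had a median over mice of 92.4% in the neuroblast-like, 57.3% in the ganglion-like and 52.6% in the Schwann-like class. Free RNA was estimated at a median of 6.95% of UMIs in neuroblast-like, 23.4% in ganglion-like and 9.13% in Schwann-like cells, and reached the limit set for the estimate, 50%, in the neuroblast-like cells of mouse 2. Subtracting it left 31 and 26 of the genes higher in neuroblast-like cells in the tests below, the same counts as without it.

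**Figure D2:**
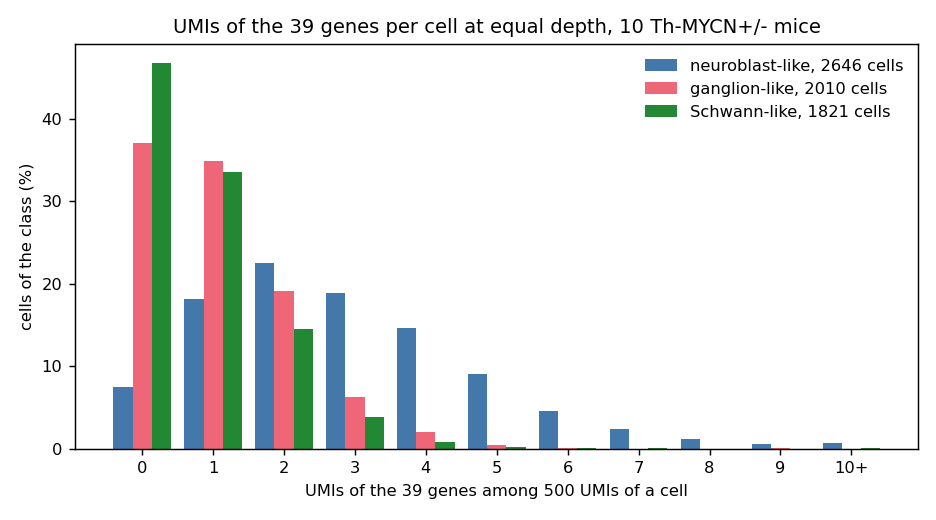
Number of UMIs of the 39 genes per cell after thinning to 500 UMIs (horizontal axis) against the percentage of cells of the class (vertical axis), pooled over the 10 Th-MYCN+/- mice at 3 weeks. Bars are the 2646 neuroblast-like, 2010 ganglion-like and 1821 Schwann-like cells. The ganglion-like and Schwann-like cells are most often at 0 UMIs and the neuroblast-like cells at 2.

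In the comparison of neuroblast-like with ganglion-like cells of the same 10 mice, 31 of the 33 genes with enough counts were higher in neuroblast-like cells and none was lower (edgeR's quasi-likelihood test with Benjamini-Hochberg adjustment over all 7089 genes tested). Over all genes tested, 36.3% were higher and 32.5% lower. The median log2 fold change of the 33 was 1.51, against 0.07 over all genes. For 11 of the 33, every neuroblast-like value was above every ganglion-like value, which held for 9.27% of all genes. In all 10 mice, 19 were higher in neuroblast-like cells, a count that was not made over all genes and so cannot be set against a background. Polr1a, Polr1b, Heatr1, Rrp12, Nop2 and Rrp1b had too few counts to be tested. In each class comparison, a gene could enter the test through its counts in 1 class alone. Entry was thus not independent of the difference tested. With no filter on low counts 34 of the 39 were higher in neuroblast-like cells, with 4076 of 19104 genes higher over all. The p-values measure the spread between mice, each giving both cell sums. Ribosomal protein genes, which are not among the 39, took 12.1 ± 1.83% of UMIs in neuroblast-like and 5.16 ± 1.01% in ganglion-like cells. The larger of the 2 neuroblast-like clusters (1796 cells) was led by the mitotic genes Plk1, Ccnb1, Nusap1 and Cdk1.

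Against Schwann-like cells, 26 of 29 genes tested were higher in neuroblast-like cells and none was lower, with 37.6% of 5473 genes higher and 31.2% lower over all. Their median log2 fold change was 1.15, against 0.11 over all genes, and this background rose to 0.30 with relative log expression scaling in place of the trimmed mean, under which 27 of the 29 passed. For 8 of the 29 the ranges did not overlap, against 13.2% of all genes. With no filter on low counts 34 of the 39 were higher, with 4352 of 18627 genes higher over all. Both comparisons share the neuroblast-like sums, so they are not independent of each other. The Schwann-like class includes a cluster led by Fos, Atf3 and Hspa1a, immediate early and heat shock genes. A list of immediate early genes together with Hspa1a and Hspa1b summed to 7888 ± 3302 CPM in Schwann-like and 1041 ± 787 CPM in neuroblast-like cells. The part of these genes in the comparison was not tested.

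**Figure D3:**
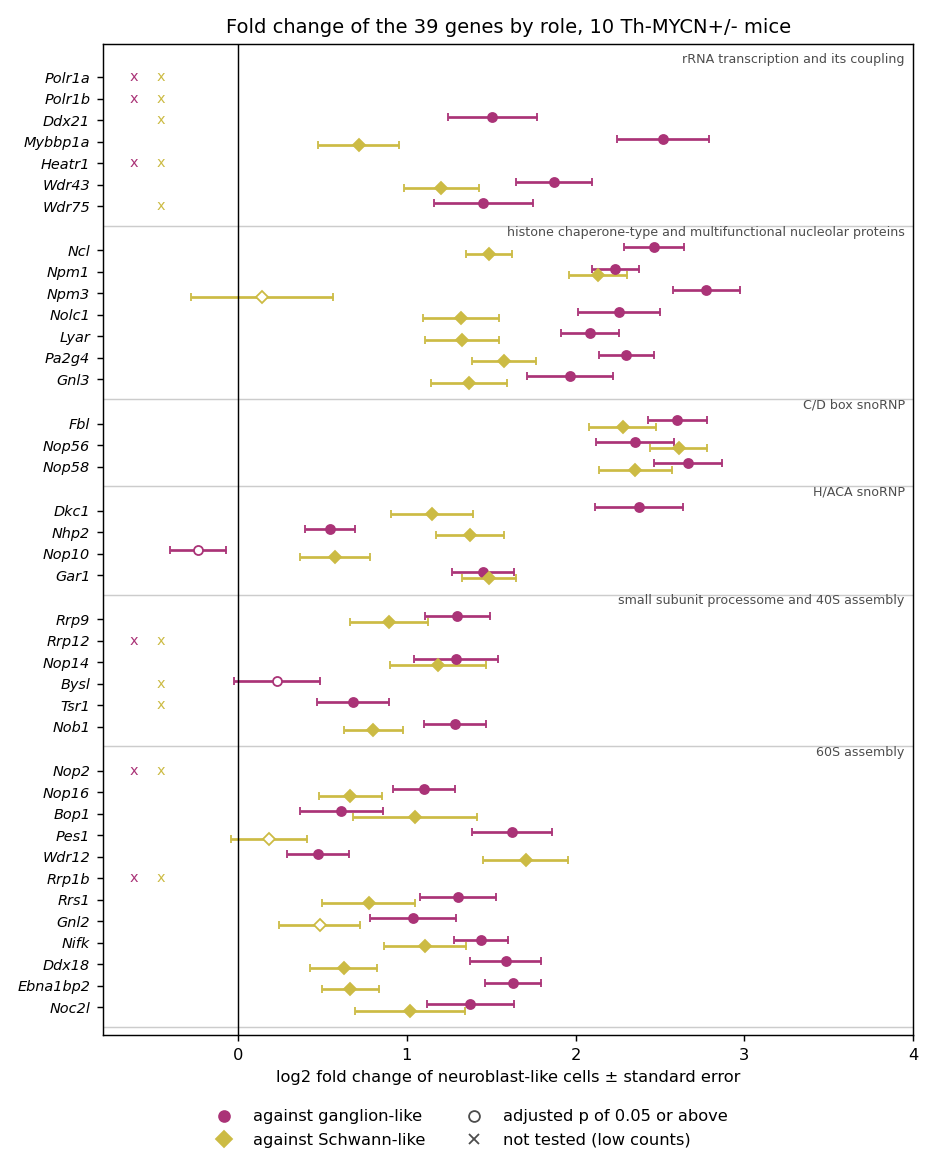
Log2 fold change of each gene in neuroblast-like cells against ganglion-like cells (circles) and Schwann-like cells (diamonds), with the standard error as a bar, in 10 Th-MYCN+/- mice at 3 weeks, grouped by role on the vertical axis. Filled symbols have an adjusted p below 0.05 and crosses stand for genes with too few counts. Against ganglion-like cells, Nop10 lies below 0 and the other 32 genes tested above it, with C/D box snoRNP genes between 2.35 and 2.67.

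The proteins of the C/D box snoRNP, which methylates rRNA, were among the largest increases. Fbl, the methyltransferase fibrillarin (ENSMUSG00000046865, chr7:28169710-28179269, mm10), ranged from 276 to 479 CPM with a median of 337 in neuroblast-like cells and from 18.2 to 92.2 CPM with a median of 55.4 in ganglion-like cells. Every neuroblast-like value exceeded every ganglion-like value. Its log2 fold change was 2.60 ± 0.17 (SE; adjusted p = 2e-11, edgeR) against ganglion-like and 2.28 ± 0.20 against Schwann-like cells. Nop58, a core scaffold protein of the particle, differed by 2.67 ± 0.20 and 2.35 ± 0.22 on the log2 scale, with no overlap in either comparison. Nop56, its paralog in the same scaffold, differed by 2.35 ± 0.23 and 2.61 ± 0.17. Nop56 was 43.2 CPM in mouse 2 and from 223 to 431 CPM in the other neuroblast-like sums, and the mouse 2 value lay within the ganglion-like range. The mouse 2 sum held 23151 UMIs in 30 cells, where 3 counts equal 130 CPM, so its Nop56 value lies below that limit.

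The H/ACA snoRNP, which converts uridine of rRNA to pseudouridine, was less uniform. Its enzyme dyskerin, Dkc1, differed by 2.37 ± 0.26 against ganglion-like and 1.15 ± 0.24 against Schwann-like cells on the log2 scale. Gar1, a protein of the same particle, differed by 1.45 ± 0.18 and 1.48 ± 0.16, and was higher in neuroblast-like cells in all 10 mice in both comparisons. Nhp2, also a core protein, was 242 ± 43.9 CPM in neuroblast-like and 169 ± 42.9 CPM in ganglion-like cells, a log2 fold change of 0.54 ± 0.15 (adjusted p = 0.0028, edgeR).

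Nop10, the smallest protein of the H/ACA particle, did not pass the test against ganglion-like cells. It ranged from 135 to 691 CPM with a median of 276 in neuroblast-like cells and from 180 to 636 CPM with a median of 318 in ganglion-like cells. The ranges overlapped almost throughout, and mouse 2 gave the highest value in both. The log2 fold change was -0.24 ± 0.17 (adjusted p = 0.21, edgeR), and without mouse 1 it was -0.40 with an adjusted p of 0.042. Nop10 made up 19.5% of the summed level in ganglion-like cells and 5.63% in neuroblast-like cells. Against Schwann-like cells it differed by 0.58 ± 0.21 (adjusted p = 0.019).

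Multifunctional nucleolar proteins carried the largest part of the sum, 2595 ± 209 CPM in neuroblast-like, 528 ± 90.5 CPM in ganglion-like cells, and all 7 were higher in neuroblast-like than in ganglion-like cells. Npm1, the histone chaperone and 60S export factor nucleophosmin (ENSMUSG00000057113, chr11:33152287-33163206), ranged from 1037 to 1449 CPM with a median of 1237 in neuroblast-like cells and made up 23.0% of the sum. It ranged from 205 to 398 CPM with a median of 254 in ganglion-like cells and from 0 to 331 CPM with a median of 246 in Schwann-like cells. The neuroblast-like values lay apart from both other groups. The log2 fold changes were 2.24 ± 0.14 (adjusted p = 7.7e-12, edgeR) and 2.13 ± 0.17.

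Ncl, nucleolin, an RNA-binding protein of early rRNA processing (ENSMUSG00000026234, chr1:86344719-86359400), ranged from 427 to 713 CPM with a median of 511 in neuroblast-like, from 36.3 to 174 CPM with a median of 96.4 in ganglion-like and from 102 to 493 CPM with a median of 165 in Schwann-like cells. The neuroblast-like values cleared all ganglion-like values but not the Schwann-like value of mouse 2, which rests on 2 UMIs in 7 cells. The log2 fold changes were 2.46 ± 0.18 and 1.49 ± 0.14. Pa2g4, an rRNA-binding protein linked to growth control, was 378 ± 53.1 CPM in neuroblast-like cells and differed by 2.30 ± 0.16 and 1.58 ± 0.19 on the log2 scale, with no overlap in either comparison. Lyar, a nucleolar zinc finger protein, and Nolc1, a snoRNP chaperone, differed by 2.09 ± 0.17 and 2.26 ± 0.24 against ganglion-like cells. Gnl3, the GTPase nucleostemin, differed by 1.96 ± 0.25 and 1.37 ± 0.23.

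Npm3, a nucleophosmin family chaperone, had the largest change against ganglion-like cells, 2.77 ± 0.20 (143 ± 31.6 against 19.5 ± 7.53 CPM), and did not pass against Schwann-like cells, 0.14 ± 0.42 (adjusted p = 0.78, edgeR). Its Schwann-like values ranged from 0 to 713 CPM with a median of 59.4. Mouse 6 (713 CPM) and mouse 8 (525 CPM) lay far above the others. In mouse 6, 79 of 84 Npm3 UMIs came from 1 of 112 Schwann-like cells, a cell with 27462 UMIs in all, and in mouse 8 all 52 came from 1 cell with 1202 UMIs. With the leading cell of each gene taken out of every sum, an alternative added after seeing the data, the log2 fold change of Npm3 was 1.02 ± 0.16 (adjusted p = 2.9e-06, edgeR). Taking out a cell removes a larger share from sums of few UMIs or led by 1 cell, so it does not treat the classes alike.

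Factors of rRNA transcription and its coupling to processing were the lowest-expressed group, at 143 ± 49.0 CPM in neuroblast-like and 44.2 ± 23.3 CPM in ganglion-like cells for 7 genes. All 4 genes tested against ganglion-like cells were higher in neuroblast-like cells. Mybbp1a, a nucleolar MYB-binding protein, changed most, 2.52 ± 0.27 (36.4 ± 8.49 against 6.06 ± 3.98 CPM), and by 0.71 ± 0.24 against Schwann-like cells. The helicase Ddx21 differed by 1.51 ± 0.26, and Wdr43 and Wdr75, which join transcription to the small subunit processome, by 1.87 ± 0.23 and 1.45 ± 0.29. Polr1a and Polr1b, the large catalytic subunits of RNA polymerase I, and Heatr1 were too low for the test.

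For assembly of the 40S subunit, 4 of 5 genes tested were higher in neuroblast-like than in ganglion-like cells. Rrp9, a U3 snoRNP protein, differed by 1.30 ± 0.19, Nop14, of the small subunit processome, by 1.29 ± 0.25 and Nob1, the endonuclease that finishes 18S rRNA, by 1.29 ± 0.18. Tsr1, a late 40S factor, differed by 0.68 ± 0.21. Bysl, bystin, did not pass, with 12.5 to 48.1 CPM (median 27.1) against 0 to 49.6 CPM (median 21.9; log2 0.23 ± 0.26, adjusted p = 0.43, edgeR). Against Schwann-like cells Rrp9, Nop14 and Nob1 had enough counts, and all 3 were higher in neuroblast-like cells.

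For the 60S subunit, all 10 genes tested were higher in neuroblast-like than in ganglion-like cells and 8 of 10 in neuroblast-like than in Schwann-like cells. Ebna1bp2, a 60S assembly factor, ranged from 152 to 294 CPM with a median of 213 in neuroblast-like and from 27.7 to 106 CPM with a median of 71.5 in ganglion-like cells, with no overlap. Nifk, which binds the proliferation antigen Ki-67, also had no overlap (126 ± 19.4 against 46.1 ± 12.5 CPM). The 3 proteins of the PeBoW complex, which acts in 60S maturation, differed in size of change. Pes1 differed by 1.62 ± 0.24 against ganglion-like and 0.18 ± 0.23 (adjusted p = 0.64) against Schwann-like cells in edgeR. Bop1 differed by 0.61 ± 0.24 and 1.05 ± 0.37, and Wdr12 by 0.47 ± 0.18 (adjusted p = 0.028) and 1.70 ± 0.25. Gnl2, a 60S export GTPase, differed by 1.04 ± 0.25 against ganglion-like cells and did not pass against Schwann-like cells, where it ranged from 29.4 to 77.7 CPM in neuroblast-like and from 0 to 50.5 CPM in Schwann-like cells (0.48 ± 0.24, adjusted p = 0.081, edgeR).

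The ganglion-like range of sums (1512 to 2200 CPM) lay within the Schwann-like range (493 to 3014 CPM). The ends of the latter were mouse 2, with 7 Schwann-like cells, and mouse 6, whose sum held the cell of 27462 UMIs. The Schwann-like sums of the other mice spanned 1538 to 2098 CPM, inside the ganglion-like range. Single genes differed in both directions. Of 9 genes with enough counts, 2 were higher in ganglion-like cells and 3 lower (edgeR), with 38.2% of 3120 genes higher and 31.4% lower over all. Nop10 (350 ± 142 against 146 ± 92.7 CPM, log2 0.91 ± 0.16) and Nhp2 (0.94 ± 0.20), both of the H/ACA particle, were higher in ganglion-like cells in 10 of 10 mice. Ncl (-0.94 ± 0.18), Ebna1bp2 (-0.87 ± 0.20) and Pa2g4 (-0.61 ± 0.21) were lower, and without mouse 5 or mouse 10 only 1 gene passed as lower. Gar1, of the H/ACA particle too, was 67.2 ± 16.2 and 51.6 ± 23.8 CPM (0.14 ± 0.19). The median log2 fold change of all genes was 0.11 here, and 0.23 with relative log expression scaling. In a single ganglion-like cell of mouse 5, of 18863 UMIs, stood 62 of the 191 Nhp2 UMIs of that sum.

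Of the 121 other genes of ribosome biogenesis, 92 could be tested against ganglion-like cells, with 82 higher in neuroblast-like cells and 2 lower (median log2 fold change 1.19). Against Schwann-like cells 52 of 81 were higher and 1 lower (median 0.71). By group, 9 of 9 further RNA polymerase I genes, 29 of 31 genes of 40S assembly, 27 of 33 of 60S assembly and 17 of 19 of snoRNP assembly and the RNA exosome were higher than in ganglion-like cells. Against Schwann-like cells the counts were 4 of 8, 20 of 27, 18 of 28 and 10 of 18. Rrp15, a 60S factor, differed by 3.55 ± 0.28, and Exosc8, an exosome subunit, by 2.91 ± 0.21 against ganglion-like cells, where Pelp1 (2.31 ± 0.32), Utp18 (2.23 ± 0.32), Ruvbl2 (2.16 ± 0.19), Nol11 (2.12 ± 0.28), Twistnb (1.63 ± 0.20) and Taf1d (1.61 ± 0.20) were the other leading genes of these lists. Against Schwann-like cells the leading genes were Pelp1 (1.97 ± 0.31), Exosc2 (1.94 ± 0.33), Rcl1 (1.84 ± 0.28), Mrto4 (1.81 ± 0.17), Twistnb (1.42 ± 0.21), Exosc8 (1.38 ± 0.17), Polr1c (1.22 ± 0.21) and Emg1 (1.16 ± 0.18). Gnl3l, a paralog of Gnl3, and C1d, an exosome cofactor, were lower than in ganglion-like cells (-1.56 ± 0.28 and -1.05 ± 0.13), and Utp11, of the small subunit processome, was lower than in Schwann-like cells (-0.86 ± 0.16).

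Some sums were led by single cells. In neuroblast-like cells of mouse 7, 153 of 203 Dkc1 UMIs, 108 of 152 Nolc1 UMIs and 42 of 64 Gnl3 UMIs each came from 1 cell, and in mouse 9 the same held for 85 of 149 Noc2l UMIs, a gene of 60S assembly. These were different cells in mouse 7, with 3349, 5737 and 5889 UMIs in all. With the leading cell of each gene left out, 29 of 31 genes tested were higher than in ganglion-like and 25 of 27 than in Schwann-like cells. Over all genes, 2554 of 6533 and 1788 of 4664 were higher. Leaving out a cell takes a larger share from sums of few cells or UMIs. It does not treat the classes alike, so these counts do not decide what single cells contributed. Schwann-like cells of mouse 6 had the highest sum of these genes in their class, 3014 CPM, with 144 CPM of H_MYCN against 0 to 19.3 CPM in the other mice. Its cell of 27462 UMIs also gave 15 of 39 Npm1 and 10 of 16 Fbl UMIs. The part of that cell in the result was not tested beyond these values, and without mouse 6 the count against Schwann-like cells was 26 of 29.

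The 6-week-old Th-MYCN+/- ganglion was near the top of the 3-week-old range in neuroblast-like cells. The 39 genes summed to 6201 CPM there (95% Poisson interval 6084 to 6320), below the highest 3-week-old mouse at 6277. Npm1 was 1582 CPM (1524 to 1643) and Nhp2 380.2 CPM (352 to 410.5), both above all 10 mice at 3 weeks, whose highest values were 1449 and 297 CPM. These were the 2 of 39 genes with an interval above that range, against 1.35% of 13065 genes, and 0 were below it, against 0.651%. In ganglion-like cells the sum was 1687 CPM (1623 to 1753) and no gene had an interval past the range, against 0.734% of genes above and 0.271% below. In Schwann-like cells the sum was 1795 CPM (1679 to 1918). Polr1a was above the range (57.1 CPM against 0 to 10.1), with 25 of its 28 UMIs in 1 cell. It was 1 of 37 genes measured, against 0.75% over all genes, and none lay below (0.0656%). Every gene but Ncl had a lowest 3-week-old value of 0 CPM there, so none of these could lie below the range.

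In WT, the ganglion-like sum was 1543 CPM (1407 to 1689) and the Schwann-like sum 1639 CPM (1479 to 1811), both inside the ranges of the 3-week-old Th-MYCN+/- mice. No gene had an interval past those ranges in ganglion-like cells (1.48% of all genes above, 0.138% below) or in Schwann-like cells (1.3% above, 0.0668% below). Every gene but Ncl had a lowest Schwann-like value of 0 CPM, so none of these could lie below that range. The WT library had 35 cells in the neuroblast-like clusters, with a median of 331 UMIs and 27 UMIs of the 39 genes in all. Their sum was 2065 CPM (1361 to 3005), below the lowest Th-MYCN+/- value of 4492. Npm1 was the only gene whose interval lay below the range (153 CPM, 18.5 to 553, against a lowest value of 1037), against 0.933% over all genes, and none lay above it (2.88%). At this depth a gene with 0 UMIs has an upper limit of 282 CPM. Of the 39 genes, only Npm1, Ncl and Pa2g4 had a lowest 3-week-old value above that, so no other gene could lie below. H_MYCN had 0 UMIs in these 35 cells, so the same upper limit of 282 CPM holds for it, and 3 counts would equal 229 CPM. With cells clustered after log normalization instead, 1 WT cell was in the class, so this value rests on how the cells were assigned.

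H_MYCN was used to ask whether the 39 genes follow the transgene transcript among neuroblast-like cells. Of 2601 such cells thinned to 1000 UMIs, 678 (26.1%) held a H_MYCN UMI, against 0.279% of ganglion-like and 0.460% of Schwann-like cells. The cells had medians of 4425, 1774.5 and 1486 UMIs before thinning. In the 9 mice with enough cells, the sum was 5700 ± 422 CPM in cells with and 5526 ± 502 CPM in cells without a H_MYCN UMI, and higher with it in 7 of 9. None of 35 genes passed the edgeR test with Benjamini-Hochberg adjustment, 5 had an unadjusted p below 0.05, and DESeq2 called 0. Over all 5806 genes 0.0517% passed as higher and 0.0172% as lower. Ddx21 had the largest difference, 0.98 ± 0.23 (adjusted p = 0.30), followed by Nop2, an rRNA methyltransferase, at 0.45 ± 0.19 and Nop58 at 0.29 ± 0.10. Wdr43 (-0.37 ± 0.19), Nolc1 (-0.32 ± 0.15) and Bysl (-0.31 ± 0.19) had the lowest differences. Ganglion markers summed to 2901 ± 450 CPM in cells with and 4301 ± 1980 CPM in cells without the UMI in the same 9 mice. Among cells low in ganglion markers, with thinned counts, an alternative added after seeing the data, 10 of the 39 genes had enough counts and 0 passed (edgeR, 0 with an unadjusted p below 0.05). A cell without a H_MYCN UMI at this depth may still express the transgene, since 1035 of the 1923 cells without one (53.8%) held one before thinning.

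Across the 10 mice, the change per doubling of H_MYCN in neuroblast-like sums did not pass for any of 37 genes in edgeR, 1 had an unadjusted p below 0.05 and DESeq2 called 0. Over all 9536 genes 0.0105% passed, which was H_MYCN itself. The gene below 0.05 was Nop10, at -0.51 ± 0.19 log2 per doubling (adjusted p = 0.86), followed downward by Ddx18 at -0.23 ± 0.20 and Npm3 at -0.18 ± 0.13. Noc2l (0.56 ± 0.28), Ddx21 (0.32 ± 0.31) and Nop56 (0.30 ± 0.15) had the highest slopes. Mouse 4 had the highest H_MYCN, 596 CPM, with a sum of 5038 CPM, and mouse 2 the lowest of both, 86.4 and 4492 CPM. The mouse 2 H_MYCN value is 2 UMIs, below the limit of 3 counts (130 CPM). Its Poisson interval of 10.5 to 312 CPM contains the 124 CPM of mouse 10. The highest Nop10 value, 691 CPM, was also in mouse 2, from 16 UMIs, 6 of them in 1 cell. Without mouse 2, 22 of 37 slopes were above 0 and 15 below, against 31 and 6 with it, and again none passed.

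**Figure D4:**
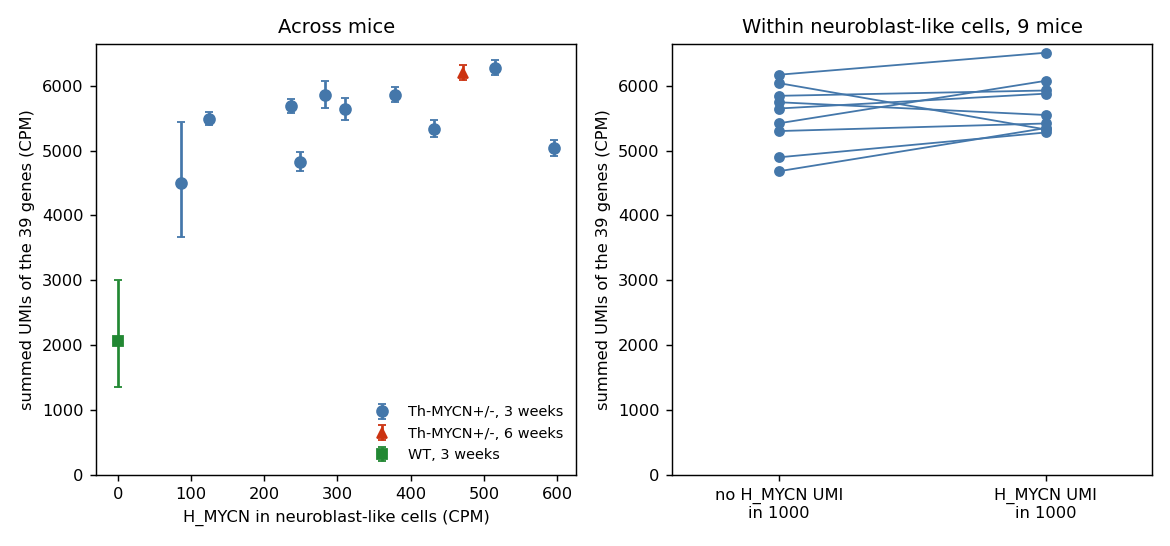
Left, H_MYCN in CPM (horizontal axis) against the summed level of the 39 genes in CPM (vertical axis) in neuroblast-like cells, 1 point per mouse, with 95% Poisson intervals for counting error. Right, the summed level in neuroblast-like cells without and with a H_MYCN UMI among 1000 UMIs, 1 line per 3-week-old Th-MYCN+/- mouse (n = 9). The sum is higher with the UMI in 7 of 9 mice, and the WT point lies alone at 0 H_MYCN.

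Neuroblast-like cells were also divided by cell cycle transcripts, counting UMIs of 42 S phase and 54 G2M phase genes in 1000. Low-cycle cells held at most 9, cycling cells at least 21 and were called S-leading or G2M-leading by the larger list. The groups are cut from a score and name no cell type, and 751 of the 2601 cells lay within 2 UMIs of a limit. In the 6 mice with at least 5 cells in each, the 39 genes summed to 4301 to 5906 CPM in low-cycle (5295 ± 660), 5467 to 7866 CPM in S-leading (6257 ± 839) and 4900 to 5759 CPM in G2M-leading cells (5297 ± 316). The S-leading sum was above the G2M-leading sum in 6 of 6 mice and above the low-cycle sum in 5 of 6, with the ranges overlapping in both pairs. S-leading cells numbered 61 in these mice, from 6 to 19 per mouse.

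Pa2g4 was the 1 of 34 genes higher in S-leading than in low-cycle cells (473 ± 165 against 290 ± 61.7 CPM, log2 0.58 ± 0.18, adjusted p = 0.032, edgeR), and none was lower, with 5.64% of 6119 genes higher and 4.84% lower over all. Without mouse 4, 8 or 10 no gene passed, and without mouse 1 there were 2. Lyar (0.79 ± 0.27, adjusted p = 0.057), Dkc1 (0.69 ± 0.29) and Nop56 (0.64 ± 0.24) had larger differences that did not pass, and Wdr43 (-1.33 ± 0.53), Noc2l (-1.29 ± 0.59) and Gnl3 (-0.94 ± 0.37) the lowest. In G2M-leading cells 3 genes were higher and 4 lower than in low-cycle cells (13.8% and 11.7% over all). Pa2g4 (0.70 ± 0.13), Lyar (0.56 ± 0.19) and Ncl (0.34 ± 0.12) were higher. Tsr1 (-0.91 ± 0.28), Noc2l (-0.91 ± 0.31), Rrp9 (-0.68 ± 0.21) and Nop10 (-0.53 ± 0.14) were lower. Without mouse 4, 8 or 10 only 1 gene was higher, without mouse 1 only 1 was lower and without mouse 9 only 2 were. Between G2M-leading and S-leading cells none of 34 passed in edgeR (2.01% and 0.588% over all), 2 had an unadjusted p below 0.05 and DESeq2 called 0. Wdr43 (1.27 ± 0.53), Gnl3 (0.46 ± 0.39) and Noc2l (0.38 ± 0.64) had the highest and Nop2 (-0.87 ± 0.54), Ddx18 (-0.55 ± 0.34) and Bysl (-0.55 ± 0.46) the lowest values there. The 3 comparisons share their cell sums. Over all genes, the calls split 345 higher to 296 lower in S-leading against low-cycle cells (368 to 172 in DESeq2), 846 to 713 in G2M-leading against low-cycle cells (760 to 959 with relative log expression scaling) and 123 to 36 in G2M-leading against S-leading cells (85 to 50 with that scaling).

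In the same 6 mice, low-cycle cells held 6729 ± 3712 CPM of the ganglion markers, against 2574 ± 444 in S-leading and 2271 ± 249 in G2M-leading cells, and the part of this in the differences was not tested. H_MYCN was lower in S-leading than in low-cycle cells (-1.13 ± 0.21, adjusted p = 0.00035, edgeR). It averaged 209 ± 76.8 CPM in the S-leading sums, which held 6 to 19 cells per mouse and so few H_MYCN UMIs each. With the list sums divided by their means, a split chosen after seeing the data, S-leading cells of 9 mice held 268 ± 106 CPM. Low-cycle cells of 9 mice held 358 ± 187 CPM.

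**Figure D5:**
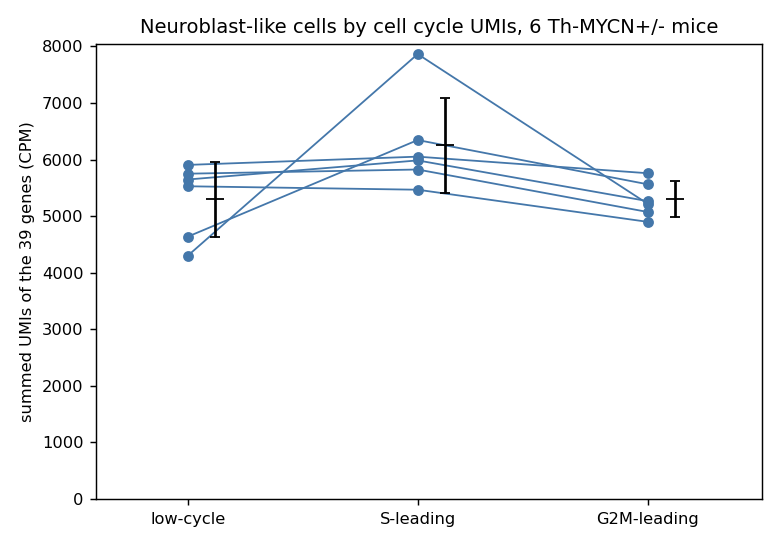
Summed level of the 39 genes in CPM (vertical axis) in low-cycle, S-leading and G2M-leading neuroblast-like cells (horizontal axis), 1 line per mouse (6 Th-MYCN+/- mice at 3 weeks). Black bars give the mean ± SD. The S-leading value of mouse 4 (7866 CPM, from 6 cells) lies above the rest, and the 3 ranges overlap.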

How the data were processed

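Superior mesenteric ganglia of 12 mice were dissociated and sequenced with Chromium 3′ libraries. The authors deposited unfiltered UMI counts per gene and barcode, made with Cell Ranger (3.0.2 per the file headers) on mm10 plus human MYCN. Counts of 3′ tags were not divided by transcript length. Members, gene lists and roles were chosen with earlier results of these data known.

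Cells were called by a re-implementation of EmptyDrops (barcodes above 100 UMIs, FDR 0.01), leaving 15843, and kept with at least 200 genes, at most 10% mitochondrial and 60% ribosomal UMIs; the study's own cell calls were not used here, so class names are rebuilt. No doublet caller was run. Cells were clustered with Seurat 5.3.0 and sctransform 0.4.2 (30 components, resolution 0.5) without the members. UMIs were summed per mouse and class with at least 5 cells and tested with edgeR 4.0.16 (quasi-likelihood, trimmed mean scaling, Benjamini-Hochberg over all genes, FDR 0.05) with the mouse as block in R 4.3.3; the slope across mice had no block. Both sums of a mouse came from the same animal, and their deviations from the class means correlated at -0.01 to 0.28 over 10 pairs for neuroblast-like and ganglion-like cells, with 9 positive. DESeq2 1.42.0, other scaling, filters, clusterings, thinning and leaving out each mouse were alternatives. On simulated data for the ganglion comparison, 168 of 200 changed genes (1.5 on the log2 scale) were recovered with 5 false calls among 7328 genes. The changed genes were drawn from well-counted ones, with no difference between mice and no other difference between classes. These numbers therefore do not extend to the low members or to the real data, where most genes passed. A gene was said to lie past the range of the 10 mice if it had at least 10 UMIs in the compared sums and its Poisson interval lay outside. Values were given for the 8 members of highest neuroblast-like level, the 3 largest and 3 smallest changes of each comparison, members that passed against the direction of most, and, for the other pathway genes, the 2 largest changes per list; members named beyond this were chosen after their values were seen.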

Additional observations from a re-analysis of the deposited data

Results flagged for a closer look

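Of 51 groups of 4 to 10 values examined for a single value far from the rest, 7 had one; chance gives about 1 in 20 groups. Mouse 7 had 396 CPM of Dkc1 in neuroblast-like cells, where the next mouse had 88.8 CPM, and 153 of its 203 UMIs were in 1 cell. Mouse 2 had 493 CPM of Ncl and 0 CPM of Npm1 in its 7 Schwann-like cells, where the nearest other mice had 211 and 182 CPM. The summed level of the 39 genes was 3931 CPM in endothelial-like cells of mouse 2, above 2683 CPM in the next, and 7866 CPM in the 6 S-leading neuroblast-like cells of mouse 4, above 6346 CPM in the next. H_MYCN stood apart in Schwann-like cells of mouse 6 at 144 CPM, with 19.3 CPM in the next. In ganglion-like cells of mouse 3 it was flagged at 9.22 CPM, with 4.35 CPM in the next. That mouse 3 value is 1 UMI, below the limit of 3 counts (27.7 CPM) in this sum. Its Poisson interval of 0.233 to 51.4 CPM contains the next value.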

How the results depend on the processing

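Against ganglion-like cells, the members higher in neuroblast-like cells numbered 28 to 33 and those lower 0 to 1 when each mouse was left out in turn; against Schwann-like cells the numbers were 23 to 28 and 0. Genes called ranged from 4408 to 5321 and from 3274 to 4366. With every cell thinned to 500 UMIs, fewer genes were tested. Then 811 of 1232 and 1346 of 1805 genes and 4 of 6 and 9 of 12 members passed. With no filter on low counts 8017 of 19104 and 7869 of 18627 genes passed. Without the mouse as block 30 of 33 and 26 of 29 members passed. For ganglion-like against Schwann-like cells, 2097 to 2522 genes, 2 to 3 members higher and 1 to 4 lower passed with 1 mouse left out. Without a filter 6919 of 17946 genes passed, with 6 of 39 members higher and 6 lower. After thinning 591 of 884 genes passed, with 0 of 1 member.

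Between S-leading and low-cycle cells, 466 to 703 genes, 0 to 2 members higher and 0 lower passed with 1 mouse left out. Members higher numbered 3 of 34 with DESeq2 or relative log expression scaling, 0 of 34 without the replicate block and 2 of 35 with the median in place of tertiles. With thinned counts 0 of 16 were higher, and 201 of 2312 genes passed. Without a filter 0 of 39 were higher and 3 lower, and 1199 of 16839 genes passed. With the list sums divided by their means, a split chosen after seeing the data, 8 of 28 were higher and 3 lower. Over all genes, 1501 of 4164 passed under that split. Mouse 4 then had a summed level of 6064 CPM over 47 S-leading cells. Between G2M-leading and low-cycle cells, 1218 to 1675 genes, 1 to 3 members higher and 1 to 5 lower passed with 1 mouse left out. There, 7 of 34 were lower with relative log expression scaling, and 1 was higher and 2 lower of 34 without the block. With the median 1 of 35 was higher. With thinned counts 1 of 16 passed each way, and 482 of 2312 genes passed. With divided sums 2 of 28 were lower. Between G2M-leading and S-leading cells 98 to 153 genes passed with 1 mouse left out, 599 without a filter, 104 without the block, 256 with the median, 95 with thinned counts and 377 with divided sums, where 2 members were lower; otherwise 0 members passed.

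For cells with a H_MYCN UMI, 1 to 5 genes passed with 1 mouse left out, 142 with 1 member without a filter, and 1 each without the block, in low-cycle cells, with thinned counts and in cells low in ganglion markers. Along H_MYCN across mice, 0 to 3 genes passed with 1 mouse left out, 16 in DESeq2, 3 without a filter and 26 after thinning. Signs turned for Npm3 against Schwann-like cells (-0.36 without the block, -0.0099 under a cell filter of 500 genes and 5% mitochondrial UMIs, -0.036 to 0.58 with 1 mouse left out), Pes1 (-0.052 under that filter), Wdr43 and Dkc1 with divided sums in S-leading cells (0.17 and -0.15), and, for G2M-leading against S-leading cells, Noc2l (-0.018 without the block, -0.040 to 0.59 with 1 mouse left out), Gnl3 (-0.28 with the median) and Wdr43 (-0.11 with divided sums). They also turned for Nolc1 with a H_MYCN UMI in low-cycle cells (0.15) and Ddx18 along H_MYCN after thinning (0.0032). The cause of these changes was not tested.

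The summed level in the 6-week-old mouse was 6346 CPM in neuroblast-like, 1922 in ganglion-like and 1474 in Schwann-like cells after thinning, and 6452 in neuroblast-like and 1668 in Schwann-like cells with log-normalized clustering. In WT it was 1402 CPM in Schwann-like cells after thinning and 0 in the 1 neuroblast-like cell that log-normalized clustering left. Leaving out mouse 2 was not run for the cycle and H_MYCN UMI comparisons, where it had too few cells. Depth limits the low members: Polr1a, Polr1b, Heatr1, Rrp12, Nop2 and Rrp1b could not be tested in either class comparison.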
